A study of Mus musculus with 6 samples.

Results

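The CC chemokine ligands described here are 10 genes of the mouse family of small secreted proteins that guide leukocytes along a concentration gradient, taken from the 54532 genes of the deposited count table by symbol: Ccl2, Ccl3, Ccl4, Ccl5, Ccl6, Ccl7, Ccl9, Ccl12, Ccl17 and Ccl22. They were measured by RNA-seq in N9 microglia, an immortalized cell line derived from mouse brain, in 3 libraries of untreated control cells and 3 libraries of cells given lipopolysaccharide (LPS) at 1 µg/ml for 6 h. All 6 libraries came from the same line, grown in RPMI medium with FBS, without other cell types or any genetic change named by the labels. LPS, a glycolipid that coats gram-negative bacteria, is sensed by microglia through Toll-like receptor 4, and the comparison asks which of these ligands respond to it at the level of mRNA. The labels do not say whether the replicates were separate cultures, so p-values measure only the spread between these libraries.

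CC chemokines carry a pair of adjacent cysteines near the start of the mature protein and act through G protein-coupled receptors on monocytes, macrophages, dendritic cells and T cells. In the brain, activated microglia and astrocytes are known sources of several of them. By their main receptors the 10 ligands fall into the monocyte chemoattractant group (Ccl2, Ccl7 and Ccl12), the macrophage inflammatory group with Ccl5 (Ccl3, Ccl4 and Ccl5), a rodent pair that uses the receptor Ccr1 (Ccl6 and Ccl9), and a pair that attracts T cells through Ccr4 (Ccl17 and Ccl22).

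The total count per library lay between 16363767 and 17956772, and 3 counts corresponded to between 0.161 and 0.19 CPM (counts scaled to TMM-normalized library sizes). Of 12 microglia and macrophage markers, all 12 had more than 3 counts in a library, although the microglial marker P2ry12 held only between 3 and 6 counts and Aif1 between 4 and 9. Control replicates 2 and 3 stood apart by hepatocyte transcripts: the 7 markers summed to between 0.175 and 20.2 CPM in the control libraries and between 0 and 0.548 CPM in the LPS libraries. Of 4 neuronal markers the sum was between 3.79 and 4.59 CPM without LPS and between 11.2 and 14.5 CPM with it, nearly all of it Tubb3. The 5 astrocyte markers summed to between 96 and 105 CPM over the 6 libraries, mostly Gja1 and Aldh1l1. Gfap held at most 10 counts and Aqp4 at most 2. The 4 oligodendrocyte markers summed to between 28.3 and 40 CPM, nearly all of it Mbp. The tests below are edgeR quasi-likelihood tests with Benjamini-Hochberg adjustment over all 12296 genes tested. A DEG is a gene that changed by more than 1.5 on the log2 scale, up or down, with an adjusted p below 0.05. Leaving out control replicates 2 and 3 together leaves 1 control library, which is then assumed to vary like the LPS libraries, the only source of the spread. In that fit the same 6 ligands passed as with all 6 libraries, which is no replicate check of the control level.

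Of the 10 ligands, 6 were up-regulated DEG in N9 microglia given LPS: Ccl2, Ccl3, Ccl4, Ccl5, Ccl7 and Ccl12. Ccl9 rose with an adjusted p under 0.05 and a log2 fold change below 1.5, Ccl6 did not pass the test, and Ccl17 and Ccl22 had too few counts for it. Over all genes tested, 2.65% were DEG, 2.40% were up-regulated DEG, and 18.7% rose and 15.7% fell at an adjusted p under 0.05 whatever the fold change. Ccl5 and Ccl12 passed the filter on low counts only through their LPS libraries, so the median log2 fold change over the 8 tested ligands, 1.88 beside 0 over all genes, describes them and is not support for a response of the family. The libraries did not overlap between groups for 7 of the 8 tested ligands, Ccl6 being the exception, and every LPS library lay above every control library for 23.7% of all genes tested. In bulk RNA, more cells with a transcript and more transcript per cell cannot be told apart.

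**Figure D1:**
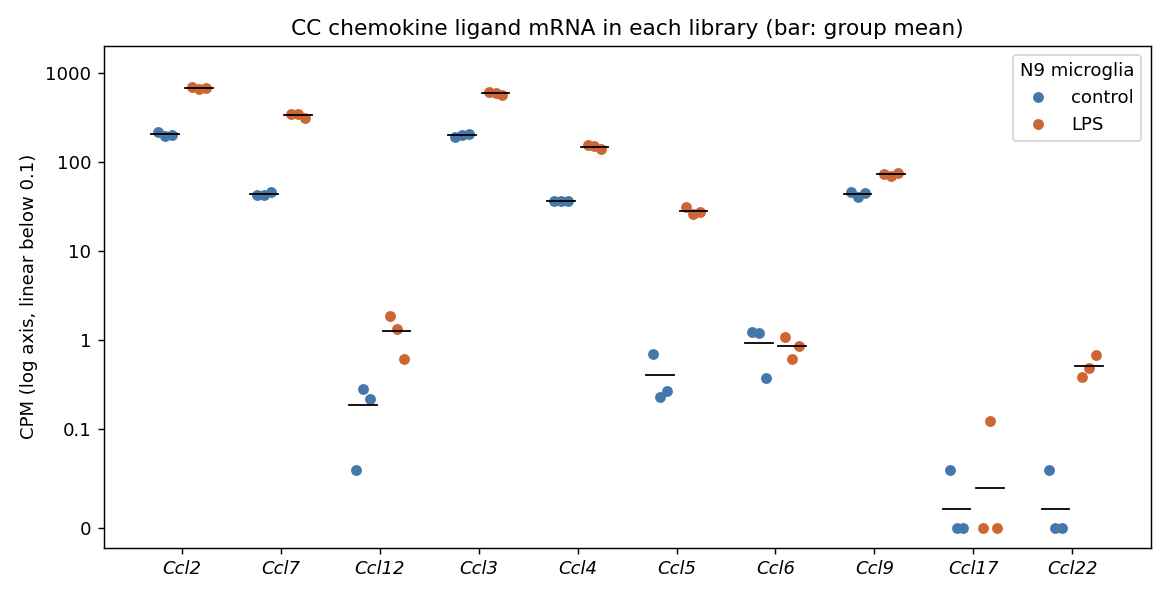
Levels of the 10 ligands in CPM (vertical axis, logarithmic above 0.1 and linear below) in each control library (blue) and LPS library (orange), with bars at the group means. Ccl2 and Ccl3 lay near 200 CPM in the control group and rose to 673 and 585 CPM, Ccl5 went from below 1 to 28.2 CPM, and the libraries of Ccl6 and Ccl17 overlapped between groups.

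**Figure D2:**
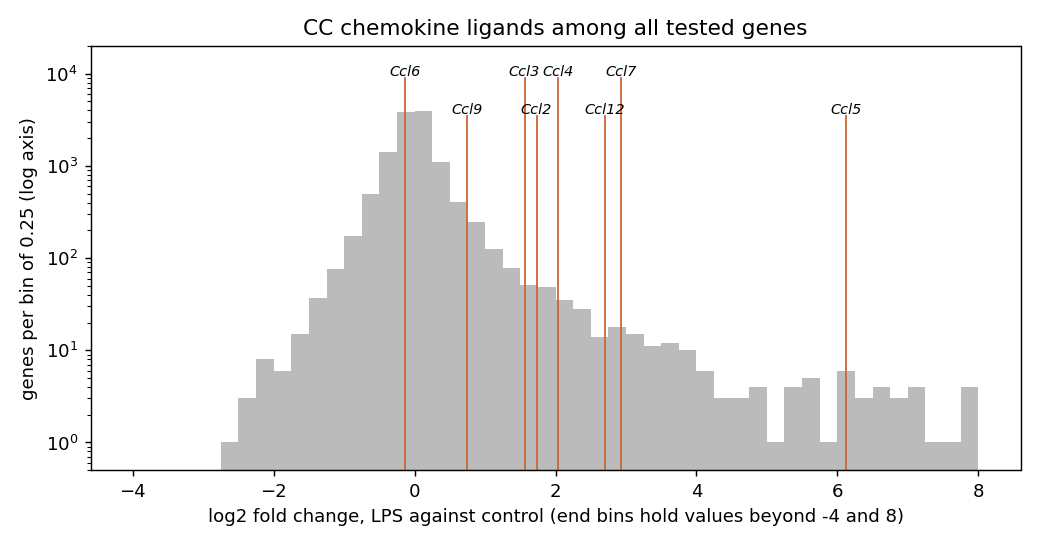
Distribution of the log2 fold changes (horizontal axis) of the 12296 genes tested, as genes per bin of 0.25 on a logarithmic axis, with the 8 tested ligands marked by orange lines. Ccl5 at 6.13 lay far in the upper tail, and Ccl6 at -0.13 lay within the bulk.

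The ligands lie in 3 places of the genome, and the positions of all 10 in the deposited table were those of GENCODE release M21 on GRCm38 (mm10). On chromosome 11, Ccl2, Ccl7 and Ccl12 occupy 67.8 kb from 82035571 to 82103400. A further 1422 kb on, Ccl5, Ccl9, Ccl6, Ccl3 and Ccl4 follow in that order within 139 kb, from 83525778 to 83664683. Ccl22 and Ccl17 lie on chromosome 8 within 66.4 kb, from 94745590 to 94812036. Between Ccl2 and Ccl12 lies Ccl11, with 2 counts over all libraries, and between Ccl22 and Ccl17 lies Cx3cl1, the gene of fractalkine, with 19. None of the 6 other genes in these spans was tested. No stretch of 75 bases of any member's transcripts was shared with a transcript of another gene, so reads of that length could not be divided between paralogs. Ccl2 overlaps Gm17268 on the opposite strand, which had 0 counts, and Ccl6 overlaps E230016K23Rik on the opposite strand, which had 7 over the 6 libraries. The use of strand in counting is not given in the sources used here, so reads of an overlapping pair may not be separable.

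Promoter sequences were taken from RefSeq on GRCm38.p6 as the 250 bases before the start of transcription given by RefSeq, and 6 of the 10 ligands were matched: Ccl3, Ccl6, Ccl9, Ccl12, Ccl17 and Ccl22. Ccl2, Ccl4, Ccl5 and Ccl7 were not matched. The RefSeq start differs from the deposited gene position for Ccl3, whose window lies a short way from the gene, and for Ccl22, whose window runs into it, while the other 4 windows adjoin their genes. Of the matched promoters, 4 are printed 5′ to 3′ on the strand of the gene. Among them, Ccl9 and Ccl3 rose and are the neighbours of Ccl6, which did not pass the test. The other, Ccl12, is a DEG that lies apart from these, in the span of Ccl2 and Ccl7. Ccl12 lies at chr11:82101595-82101844 on the plus strand, with capitals on the TATA box TATAAA. Ccl3 lies at chr11:83649379-83649628 on the minus strand and has no match to capitalise. Ccl9 at chr11:83578637-83578886 and Ccl6 at chr11:83593088-83593337, both on the minus strand, have capitals on their longest shared run of 13 bases.
Ccl12: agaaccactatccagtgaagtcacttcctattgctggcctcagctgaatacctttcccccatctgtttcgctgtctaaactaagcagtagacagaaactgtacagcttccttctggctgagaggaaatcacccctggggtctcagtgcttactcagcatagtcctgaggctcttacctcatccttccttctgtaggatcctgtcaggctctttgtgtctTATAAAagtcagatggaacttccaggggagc
Ccl3: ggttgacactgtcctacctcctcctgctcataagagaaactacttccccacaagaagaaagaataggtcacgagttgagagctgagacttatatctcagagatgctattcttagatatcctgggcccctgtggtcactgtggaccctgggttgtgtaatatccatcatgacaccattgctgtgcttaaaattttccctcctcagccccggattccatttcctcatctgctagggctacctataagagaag
Ccl9: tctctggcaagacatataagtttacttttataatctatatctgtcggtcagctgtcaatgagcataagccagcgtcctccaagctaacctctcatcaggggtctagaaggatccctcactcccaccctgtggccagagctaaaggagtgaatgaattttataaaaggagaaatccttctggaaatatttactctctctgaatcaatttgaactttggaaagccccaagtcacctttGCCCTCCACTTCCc
Ccl6: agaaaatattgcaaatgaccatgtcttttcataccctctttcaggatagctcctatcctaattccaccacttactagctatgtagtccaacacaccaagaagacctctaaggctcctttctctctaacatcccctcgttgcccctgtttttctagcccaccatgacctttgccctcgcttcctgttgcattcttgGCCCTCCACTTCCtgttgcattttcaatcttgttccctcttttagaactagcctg

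The run shared by Ccl9 and Ccl6 lies from 14 to 2 bases before the start of Ccl9 and from 55 to 43 bases before that of Ccl6. Among the 15 pairs of the 6 promoters it was the longest shared run, the others being between 6 and 10 bases. The TATA box of Ccl12 lies from 31 to 26 bases before its start. A search of both strands for 3 patterns gave few matches. TATAAA was found in Ccl12 and Ccl9, beside 12.4% of all 32851 windows of the same length, and 2 of the matches in Ccl9 are on opposite strands and overlap each other. The consensus site of NF-kappa B was found in Ccl9 alone of the 6, from 35 to 26 bases before its start, beside 7.25% of all windows. TGANTCA, a form of the AP-1 site, was also found in Ccl9, from 53 to 47 bases before the start and overlapping no other match, beside 6.75% of windows. These matches describe the letters in these windows and not binding.

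Ccl2 (ENSMUSG00000035385), known as monocyte chemoattractant protein, recruits monocytes through the receptor Ccr2. It lies on chromosome 11 from 82035571 to 82037453 on the plus strand. Untreated replicates 1 to 3 held 3671, 3420 and 3758 reads of Ccl2, and replicates 1 to 3 with LPS held 10861, 10863 and 10952. The groups were far apart and each was tight, with a coefficient of variation of 5.05% without LPS and 2.06% with it. Its level was 203 ± 10.3 CPM without LPS and 673 ± 13.9 CPM with LPS (SD, n = 3). Ccl2 thus rose 3.31-fold (log2 fold change 1.73, SE 0.04, adjusted p = 2.9e-13 by edgeR).

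Ccl7 (ENSMUSG00000035373), a ligand of Ccr2 and other receptors that also mobilises monocytes, starts 8.26 kb beyond the end of Ccl2, from 82045712 to 82047525 on the plus strand. Without LPS its reads numbered 732, 748 and 843, and with LPS 5416, 5575 and 5080. The lowest library with LPS, replicate 3, was far above the highest without it. Mean levels were 43.5 ± 1.61 and 331 ± 18.7 CPM (SD, n = 3). Ccl7 rose 7.6-fold (log2 fold change 2.93, SE 0.06, adjusted p = 7.8e-15 by edgeR), and 108 of the 12296 genes tested had a larger log2 fold change.

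Ccl2 and Ccl7 are neighbours on the same strand, and their proportion differed between the groups. Per gene length, as RPKM (CPM divided by kilobases of gene length), Ccl2 exceeded Ccl7 by 3.53, 3.22 and 3.14 times in control replicates 1, 2 and 3. With LPS the ratio was 1.41, 1.37 and 1.52. The ratios of the groups did not overlap, and with 3 libraries a group a two-sided exact permutation test has 0.1 as its smallest p. Both genes rose, and Ccl7 had the larger fold change.

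Ccl12 (ENSMUSG00000035352), a rodent ligand of Ccr2, lies 54.3 kb beyond Ccl7, from 82101845 to 82103400 on the plus strand. It was scarce, with 1, 5 and 4 reads without LPS and 29, 22 and 10 with it. The libraries with LPS were spread out, and the lowest of them, replicate 3, held 10 reads against 5 in the highest control. Ccl12 rose from 0.186 ± 0.115 to 1.26 ± 0.618 CPM (SD, n = 3), with a log2 fold change of 2.70 and an SE of 0.57 (adjusted p = 0.0019 by edgeR). Without LPS replicate 2 it fell below the filter. The glmTreat test of edgeR, whose null hypothesis is a change of at most 1.5 on the log2 scale, did not call it (adjusted p = 0.47, the highest over its alternatives). The lowest adjusted p was 3e-05 by edgeR without the filter, a fit in which no gene kept a spread of its own. Without control replicates 2 and 3 together, which leaves 1 control library with 1 read and the spread of the LPS libraries alone, the log2 fold change was 4.26 (SE 1.19, adjusted p = 0.021 by edgeR).

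Ccl3 (ENSMUSG00000000982), macrophage inflammatory protein 1 alpha, attracts monocytes and macrophages and is a ligand of Ccr1. It lies on chromosome 11 from 83647844 to 83649355 on the minus strand. Reads of Ccl3 numbered 3286, 3521 and 3805 in untreated replicates 1 to 3, against 9634, 9647 and 9149 after LPS. The groups were far apart, and Ccl3 rose from 199 ± 6.48 to 585 ± 26.9 CPM (SD, n = 3). Its log2 fold change of 1.56 (SE 0.05, adjusted p = 1.3e-12 by edgeR) was the smallest among the 6 DEG. With each library left out in turn it stayed between 1.52 and 1.59, just above the threshold for a DEG, and glmTreat did not call it (adjusted p = 1, while the lowest over its alternatives was 1.5e-252 by DESeq2).

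Ccl4 (ENSMUSG00000018930), macrophage inflammatory protein 1 beta, which attracts monocytes and T cells, lies 13.2 kb beyond Ccl3, from 83662584 to 83664683 on the plus strand. It was read 621, 646 and 672 times without LPS and 2435, 2475 and 2286 times with LPS. The control libraries were close together, with a coefficient of variation of 0.681% in CPM. Counting error alone gives more at such read numbers, so this value is no measure of how steady Ccl4 is. Ccl4 rose from 36.3 ± 0.248 to 148 ± 7.94 CPM (SD, n = 3), 4.08-fold (log2 fold change 2.03, SE 0.05, adjusted p = 3.3e-13 by edgeR). The RPKM of Ccl3 was 4.56, 4.7 and 4.88 times that of Ccl4 without LPS and 3.41, 3.36 and 3.45 times with it. Ccl3 stood above Ccl4 in every library, by a smaller factor with LPS.

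**Figure D3:**
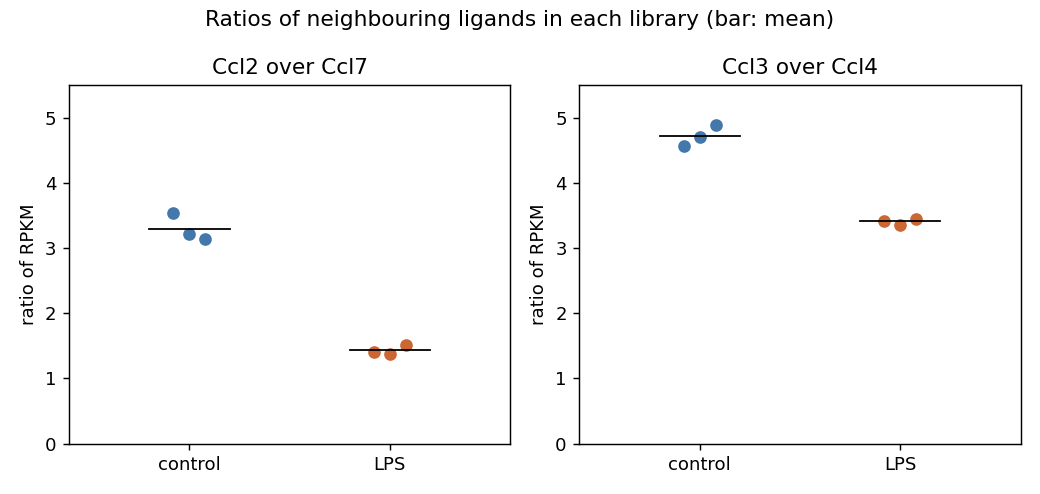
Ratio of the RPKM of Ccl2 to Ccl7 (left) and of Ccl3 to Ccl4 (right), on vertical axes that start at 0, in each control library (blue) and LPS library (orange), with bars at the means. Both ratios were lower in every LPS library, between 1.37 and 1.52 on the left and between 3.36 and 3.45 on the right.

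Ccl5 (ENSMUSG00000035042), also called RANTES, attracts T cells, monocytes and eosinophils, and its receptors include Ccr1 and Ccr3. It lies on chromosome 11 from 83525778 to 83530518 on the minus strand. Untreated replicates 1 to 3 held 12, 4 and 5 reads of it, and those with LPS held 492, 421 and 454. Control replicate 1 held more than both other controls, and all 3 were far below any LPS library. Its level rose from 0.399 ± 0.262 to 28.2 ± 2.79 CPM (SD, n = 3). Of the tested ligands Ccl5 had the largest log2 fold change, 6.13 (SE 0.22, adjusted p = 9.5e-12 by edgeR), which was 70.2-fold, and 23 of all genes tested exceeded it. The control group held 21 reads in all, and the log2 fold change was 6.77 without control replicate 1, and 5.31 without control replicates 2 and 3 together. The markers of T and NK cells, which also express Ccl5, were all at or under 3 counts, with Cd3e, Cd3g, Cd8a, Nkg7 and Ncr1 at 0 in all 6 libraries, and their summed level was between 0 and 0.108 CPM in the control and between 0 and 0.0609 CPM in the LPS libraries.

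Ccl9 (ENSMUSG00000019122), a ligand of Ccr1 that attracts dendritic cells and is made by macrophages and osteoclasts, lies on chromosome 11 from 83572919 to 83578636 on the minus strand. Its reads numbered 775, 715 and 820 without LPS and 1139, 1126 and 1240 with LPS. The groups did not overlap, and the mean rose from 43.3 ± 2.46 to 72.1 ± 3.42 CPM (SD, n = 3). The log2 fold change of Ccl9 was 0.74, with an SE of 0.06 (adjusted p = 1.9e-07 by edgeR).

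Ccl6 (ENSMUSG00000018927), a ligand of Ccr1 found in rodents, starts 9.245 kb beyond Ccl9, from 83587882 to 83593087 on the minus strand. Untreated replicates 1 to 3 held 21, 21 and 7 reads, and those with LPS held 17, 10 and 14. The lowest library was control replicate 3, and the groups overlapped. The level was 0.931 ± 0.48 CPM without LPS and 0.847 ± 0.234 CPM with LPS (SD, n = 3). Ccl6 did not pass the test (log2 fold change -0.13, SE 0.45, adjusted p = 0.86 by edgeR), and its sign turned when single libraries were left out, over a range from -0.52 to 0.11. With an SE of this size, a change as large as that of Ccl9, 0.74 on the log2 scale, may have gone undetected. The source of the spread was not tested.

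Ccl22 (ENSMUSG00000031779), macrophage-derived chemokine, is a ligand of Ccr4 known from dendritic cells and activated macrophages. It lies on chromosome 8 from 94745590 to 94751699 on the plus strand. Only 1, 0 and 0 reads were assigned to it without LPS, against 6, 8 and 11 with LPS. The groups did not overlap, and the level with LPS, 0.513 ± 0.146 CPM (SD, n = 3), was below the filter on low counts. The summed counts were 25 with LPS against 1 in control, a ratio of 27.4 with a 95% Clopper-Pearson interval from 4.49 to 1130, which covers counting error only. In the edgeR fit without that filter no gene kept a spread of its own (prior degrees of freedom infinite, against 10.1 in the main fit). Both fits without that filter called Ccl22, DESeq2 at an adjusted p of 0.0095 and edgeR at 0.0017. Without control replicates 2 and 3 together it passed the filter and was not called (adjusted p = 0.13 by edgeR), with 1 control library holding 1 read and the spread taken from the LPS libraries alone.

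Ccl17 (ENSMUSG00000031780), thymus and activation-regulated chemokine, the other ligand of Ccr4, lies 58.8 kb beyond Ccl22, from 94810453 to 94812036 on the plus strand. It was read 1, 0 and 0 times without LPS and 0, 2 and 0 times with LPS. The groups overlapped and no library held more than 3 reads, so no fold is given, and a level up to 0.19 CPM was not distinguishable from 0. Of the 7 dendritic cell markers, 3 had more than 3 counts in a library, and Ccr7 and Clec9a were at 0 in all 6. Their summed level was between 6.63 and 7.88 CPM in the control and between 18.1 and 20.9 CPM in the LPS libraries, a difference carried by Xcr1, read 51, 29 and 49 times without LPS and 221, 258 and 221 times with it. Whether the reads of Ccl22 came from cells with these markers was not tested.

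**Figure D4:**
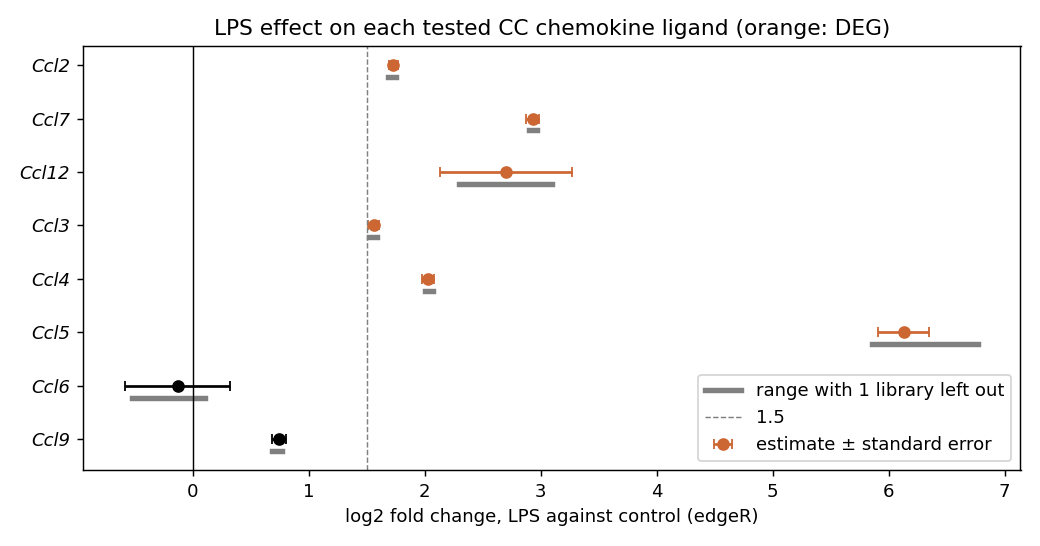
The log2 fold change (horizontal axis) between LPS and control libraries for the 8 tested ligands (vertical axis), with the standard error (thin bars) and the range when 1 library was left out in turn (thick grey bars). The 6 DEG (orange) lie to the right of the dashed line at 1.5, Ccl9 lies at 0.74, and the bars of Ccl6 cross 0.

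Compared per length, the order of the ligands was partly the same in both groups. In control cells Ccl3 was highest at 259 ± 8.46 RPKM (SD, n = 3), followed by Ccl2 at 179 ± 9.03. Ccl4 at 55.1 ± 0.375 and Ccl7 at 54.3 ± 2.02 RPKM overlapped in their libraries and were not ordered beyond their spread. Ccl9 came next at 14.2 ± 0.807 RPKM, and the libraries of Ccl6, Ccl5 and Ccl12, all with means below 1 RPKM, overlapped between neighbours. With LPS the order was Ccl3 at 764 ± 35.1, Ccl2 at 591 ± 12.2, Ccl7 at 413 ± 23.4 and Ccl4 at 224 ± 12 RPKM, with no overlap between neighbours. Ccl5 at 29.3 ± 2.91 RPKM stood next to Ccl9 at 23.7 ± 1.12, again without overlap, and Ccl12 reached 2.35 ± 1.15.

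The summed level of the 10 ligands went from 527 ± 10.5 to 1840 ± 62.8 CPM (SD, n = 3), 3.49-fold. The 3 control libraries lay between 515 and 533 CPM and the LPS libraries between 1780 and 1900, as a description with no test. By share of the summed RPKM, Ccl3 went from 46.1% ± 1.42 to 37.3% ± 0.267, Ccl2 from 31.7% ± 1.46 to 28.9% ± 0.822, Ccl7 from 9.64% ± 0.232 to 20.2% ± 0.501 and Ccl5 from 0.0737% ± 0.0484 to 1.43% ± 0.118. Ccl2, Ccl3 and Ccl7 made up 35.7%, 29.4% and 21.9% of the gain in CPM, and Ccl5, with the largest fold change, 2.11%.

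**Figure D5:**
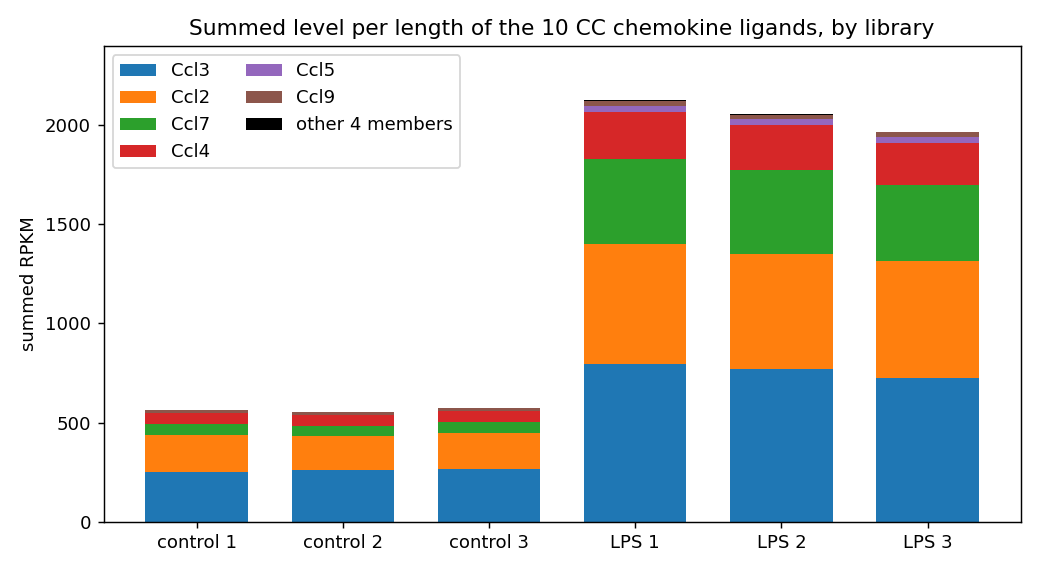
Summed RPKM of the 10 ligands in each of the 6 libraries (vertical axis from 0), stacked by gene. The LPS bars stand between 1970 and 2120 RPKM, the control bars between 554 and 572, and Ccl3, Ccl2, Ccl7 and Ccl4 make up nearly all of each.

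The other CC ligands gave little signal. Of 14 on the list, 1 was tested, Ccl25, a ligand of Ccr9, which went from 5.22 ± 0.959 to 5.5 ± 0.614 CPM (SD, n = 3) and did not pass the test (log2 fold change 0.07, SE 0.18, adjusted p = 0.79 by edgeR). A further 8 had 0 counts in all libraries. Of 15 CC chemokine receptors and decoy receptors, 3 were tested. Ccr1, the receptor shared by Ccl3, Ccl5, Ccl6 and Ccl9, rose from 19.6 ± 0.225 to 34.3 ± 4.61 CPM (log2 fold change 0.81, SE 0.09, adjusted p = 9.1e-06 by edgeR). Ccrl2, an atypical receptor that binds chemerin, was a DEG, read 24, 43 and 21 times without LPS and 456, 450 and 411 times with it (log2 fold change 4.03, SE 0.18, adjusted p = 1.4e-10 by edgeR).

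Of the 18 genes for signalling below chemokine receptors, all were tested, none was a DEG, 3 were higher and 6 lower with LPS at an adjusted p under 0.05 by edgeR, and their median log2 fold change was -0.09. The 3 that were higher are close to the share over all genes, 18.7%, and the 6 that were lower stand beside 15.7%. The list of NF-kappa B, IRF and STAT genes linked to transcription of CC ligands held 16, and all were tested. Of these, 5 were up-regulated DEG, beside 2.40% of all genes tested, and none was down-regulated. Their median log2 fold change was 1.33, beside 0 over all genes tested. The 5 DEG include Nfkbia, which encodes an inhibitor of NF-kappa B (log2 fold change 1.67, SE 0.05, adjusted p = 4e-12 by edgeR). At an adjusted p under 0.05 by edgeR, 12 of the 16 were higher, beside 18.7% of all genes tested, and 1 was lower, beside 15.7%. The lower one was Irf8, a factor of the macrophage lineage (log2 fold change -0.41, SE 0.06, adjusted p = 6.6e-05 by edgeR). Among the higher genes, Irf7, an interferon regulatory factor, rose by 3.97 on the log2 scale (SE 0.07, adjusted p = 6.4e-15 by edgeR). Nfkbiz, a nuclear co-factor of NF-kappa B, rose by 3.59 (SE 0.12, adjusted p = 5.6e-12 by edgeR). Stat2, a transducer of interferon signals, followed at 2.24 (SE 0.09, adjusted p = 3.6e-11 by edgeR). Of 13 proteases and carriers of CC ligands, 8 were tested. At an adjusted p under 0.05 by edgeR, 5 of these were higher and 1 lower, beside 18.7% and 15.7% of all genes tested. The higher ones were the syndecans Sdc1, Sdc3 and Sdc4, Srgn and Mmp12, and the lower one was Ctsc, the lysosomal protease cathepsin C (log2 fold change -0.20, SE 0.05, adjusted p = 0.005). Mmp12, a metalloproteinase known to cleave CC chemokines, was the single DEG of the 8, beside 2.65% of all genes tested. It was read 13, 10 and 16 times without LPS and 35, 40 and 47 times with LPS (log2 fold change 1.77, SE 0.30, adjusted p = 0.00034 by edgeR).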

How the data were processed

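RNA from 6 samples of N9 microglia was sequenced and processed by Novogene for the authors. The authors deposited whole-number read counts per gene, without normalization. The submitters' processing notes name featureCounts 1.5.0-p3 and mm10, while the aligner, annotation and use of strand are not given in the sources used here. A deposited table of the authors' own comparison, with fold changes and p-values and 18 columns of values per sample, was not used. Counts were tested with edgeR 4.0.16 (R 4.3.3) by quasi-likelihood, with TMM, filterByExpr and a prior count of 0.125, on all genes. CPM are counts scaled to the TMM-normalized library, and RPKM divide CPM by the deposited gene length in kilobases. Libraries of a group differed by more than sampling noise (chi-square per gene from 3.47 to 7.35). Alternatives were DESeq2 1.42.0, RLE factors, no filter, a mean of at least 10 counts, glmTreat, a prior count of 2, a replicate block and single libraries left out. Leaving out control replicates 2 and 3 together was chosen after seeing the data. The edgeR fit, its replicate block, a fit with 1 library left out and the DESeq2 fit were tested on simulated counts. Figures used matplotlib 3.10.9. The members and lists were chosen with earlier results of these data known. All 10 members are named, and each list gives up to 4 called genes, those with the largest changes among genes averaging 50 counts or more. Ccl25, Ccr1, Irf8, Nfkbia, Mmp12, Ctsc, Sdc1, Sdc3, Sdc4, Srgn, Xcr1, Gja1, Aldh1l1, Gfap, Aqp4 and Mbp were added after their values were seen. Single genes of the lists that the rule would name are not all reported here.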

Additional observations from a re-analysis of the deposited data

How the results depend on the processing

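Ccl2, Ccl4, Ccl5 and Ccl7 were DEG under all alternatives run. The number of ligands called lay from 4 with glmTreat, which lost Ccl3 and Ccl12, to 7 with DESeq2 or without the filter, which added Ccl22. With single libraries left out it was between 5 and 6. Over all genes, glmTreat called 183 DEG, 2 of them lower with LPS, and the fit without the filter 469, 91 of them lower, against 326 with 31 lower. With single libraries left out the lower ones numbered from 38 to 62. Omitting control replicate 1 gave 49, omitting LPS replicate 1 gave 62, and omitting either of the other LPS libraries gave 52. Ccl6, which did not pass the test in any fit, turned its sign to 0.11 without control replicate 1, 0.09 without control replicate 2 and 0.06 without LPS replicate 2, within a range from -0.52 to 0.11 over single libraries left out. The causes were not tested. With replicate number as a block, 6 ligands were called. Same-numbered libraries had correlations of deviations of 0.135, 0.0504 and 0.0118, and 1 of 3 control libraries correlated best with its own number, so the numbers were not taken as pairs. The depth limits Ccl6, Ccl12, Ccl17 and Ccl22, whose libraries held at most 29 counts.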
